A study of Homo sapiens with 12 samples.

Results

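The CDK inhibitors and G1 cyclins are 10 genes that govern whether a cell leaves G1: the CIP/KIP inhibitors CDKN1A, CDKN1B and CDKN1C, the INK4 inhibitors CDKN2A and CDKN2B, the D-type cyclins CCND1, CCND2 and CCND3, and the E-type cyclins CCNE1 and CCNE2. They were taken by gene name from a table with 60671 named genes, and all 10 were found, with 1 row each. The RNA came from HCT116, a long-established cell line from a human colorectal carcinoma, with the genotype labelled WT. Deprived cells were washed and kept for 24 h or 48 h in DMEM with 0 mM cystine, the oxidised dimer of cysteine, and control cells stayed in full DMEM for the same times. The medium of all 4 groups contained serum (10% fetal bovine serum) and antibiotics, and each group had 3 samples. The wash is described for the deprived cells only, so the wash and the loss of cystine cannot be told apart.

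D-type cyclins bind CDK4 and CDK6, and E-type cyclins bind CDK2. These kinases phosphorylate the retinoblastoma protein, which frees E2F factors to switch on the genes of DNA replication. INK4 proteins block CDK4 and CDK6 by keeping D-type cyclins off them, while CIP/KIP proteins bind cyclin-kinase complexes, those of CDK2 above all. Many of these proteins are also controlled by degradation, which transcript counts do not show.

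Total estimated counts ran from 19146108 to 24179533 per sample in the 12 libraries, and 16994 genes passed a filter on low counts. Levels are given as CPM, which are counts scaled to a common library size with TMM factors (a correction for differences in RNA composition). Changes are log2 fold changes with their standard error (SE), called at an adjusted p under 0.05 by edgeR's quasi-likelihood test with Benjamini-Hochberg adjustment over all tested genes. Whether replicates were separate cultures is not in the labels, so the p-values cover only how much these libraries vary, and that variation may be technical. Epithelial markers were present, with KRT8, KRT18, KRT19, EPCAM, CDH1 and CLDN7 averaging 167 to 2084 CPM over the 12 samples, while VIL1, a marker of mature gut epithelium, averaged 1.09 CPM. CDX2, the remaining marker of that list, averaged 15.5 CPM. The 8 epithelial markers summed to 5310 to 5443 CPM in deprived cells and 3774 to 4187 CPM in control cells at 24 h, and to 4977 to 5541 CPM in deprived cells and 4119 to 4553 CPM in control cells at 48 h. Of the 6 leukocyte markers, PTPRC and CD3E had 0 counts in every sample and only CD68 passed the filter on low counts. The leukocyte markers summed to 10.6 to 12.3 CPM in deprived cells and 4.15 to 5.49 CPM in control cells at 24 h, and to 22.6 to 26.9 CPM in deprived cells and 10.2 to 10.7 CPM in control cells at 48 h. The 6 fibroblast markers, of which DCN and LUM never exceeded 2 counts, summed to 16.3 to 20.7 CPM in deprived cells and 32.3 to 34.2 CPM in control cells at 24 h, and to 20.4 to 22.6 CPM in deprived cells and 44.7 to 49.4 CPM in control cells at 48 h. The 6 endothelial markers, of which CDH5 and ERG never exceeded 5 counts, summed to 32.5 to 32.9 CPM in deprived cells and 44.6 to 52.2 CPM in control cells at 24 h, and to 20.3 to 22.3 CPM in deprived cells and 48.6 to 57.8 CPM in control cells at 48 h. Most of the fibroblast sum was COL1A1, which averaged 28.8 CPM over the 12 samples. Most of the endothelial sum was EGFL7, which averaged 37.6 CPM. The part of these markers in the results was not tested.

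Promoter sequence, from before a transcript start, is shown for 4 of the genes that rose at 24 h. A RefSeq promoter window (GRCh38.p14) was found for 6 of the 10 genes. Each stretch runs 5′ to 3′ on the strand of the gene and leaves out bases that an exon of the gene in GENCODE 29 covers, which removed nearly all of the CDKN1B window. In CDKN1A, CCNE1 and CDKN2B the bases left out are those nearest the RefSeq start. GC boxes in those bases of CDKN1A and CCNE1 are not printed. Capitals mark letters that match a GC box (GGGCGG) or, in CCNE1, an antioxidant response element (TGACNNNGC), on either strand. The stretches lie at chr6:36678464-36678657 (CDKN1A, plus strand), chr19:29811741-29811897 (CCNE1, plus strand), chr9:22009364-22009555 (CDKN2B, minus strand) and chr9:21995325-21995574 (CDKN2A, minus strand). The last precedes the upstream of the CDKN2A starts, from which the ARF transcript is read.
CDKN1A: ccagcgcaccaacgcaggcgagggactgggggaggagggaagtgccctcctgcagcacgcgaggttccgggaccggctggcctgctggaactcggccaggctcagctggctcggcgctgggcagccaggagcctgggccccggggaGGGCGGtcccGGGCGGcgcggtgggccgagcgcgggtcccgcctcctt
CCNE1: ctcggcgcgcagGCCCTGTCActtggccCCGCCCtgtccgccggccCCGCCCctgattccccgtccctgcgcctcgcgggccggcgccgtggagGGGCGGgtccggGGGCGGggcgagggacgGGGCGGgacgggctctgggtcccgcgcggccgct
CDKN2B: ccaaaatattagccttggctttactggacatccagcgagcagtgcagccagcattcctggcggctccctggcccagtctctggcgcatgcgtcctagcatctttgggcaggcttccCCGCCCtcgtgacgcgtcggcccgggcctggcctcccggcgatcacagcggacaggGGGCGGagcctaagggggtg
CDKN2A: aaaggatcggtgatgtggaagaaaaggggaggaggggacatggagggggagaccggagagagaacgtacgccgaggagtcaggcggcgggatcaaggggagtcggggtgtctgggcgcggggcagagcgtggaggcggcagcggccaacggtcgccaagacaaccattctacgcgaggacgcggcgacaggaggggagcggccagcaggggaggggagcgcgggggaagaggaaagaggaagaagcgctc

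The whole 250 bases before the start held 4 GC boxes in CDKN1A, 7 in CCNE1 and 2 in CDKN2B, and 0 in the CDKN2A window shown. A GC box occurs in 42.6% of the 35116 RefSeq windows of this length. The letters of the antioxidant response element occur in 10.9% of windows, and of these 4 windows only that of CCNE1 holds them, 1 time. E2F sites (TTTCCCGC or TTTGGCGC, in 1.39% and 0.55% of windows), the ATF4 element (TGATGNAA, 3.14%), the cyclic AMP response element (TGACGTCA, 1.65%), AP-1 sites (TGANTCA, 6.57%), E-boxes (CACGTG, 6.34%), the CCAAT box (32%) and the TATA box (TATAAA, 10.7%) had 0 matches on either strand of these 4 windows. CDKN1B also rose at 24 h, and its window, which is not shown, holds 1 antioxidant response element. That window also holds 1 GC box and 2 CCAAT boxes. A second CDKN2A window, likewise not shown, holds 1 GC box. CCND3 fell at 24 h, and its windows, also not shown, hold 5, 2 and 0 GC boxes. Those with 2 and 0 GC boxes hold 1 CCAAT box each. A match describes letters and not a bound factor.

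One day of cystine deprivation was compared with full medium at the same time. Of the 9 genes that passed the filter on low counts, 6 rose (CDKN1A, CDKN1B, CDKN2A, CDKN2B, CCND1 and CCNE1), 2 fell (CDKN1C and CCND3) and CCNE2 was not called. Of all 16994 tested genes, 28.8% were called higher and 26.9% lower at 24 h. The median log2 fold change was 0.30 over the 9 genes and -0.01 over all tested genes. The genes that rose held both inhibitors and cyclins. CCND2 did not pass the filter. In bulk RNA, fewer cells that express a gene and less of its RNA per cell cannot be told apart.

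The same comparison was made after 48 h. Of the 9 genes, 4 rose (CDKN1A, CCND1, CCNE1 and CCNE2), 2 fell (CDKN1B and CDKN1C) and 3 were not called (CDKN2A, CDKN2B and CCND3). Of all tested genes, 33.5% were called higher and 34.9% lower at 48 h. The median log2 fold change was 0.12 over the 9 genes and -0.02 over all tested genes.

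**Figure D1:**
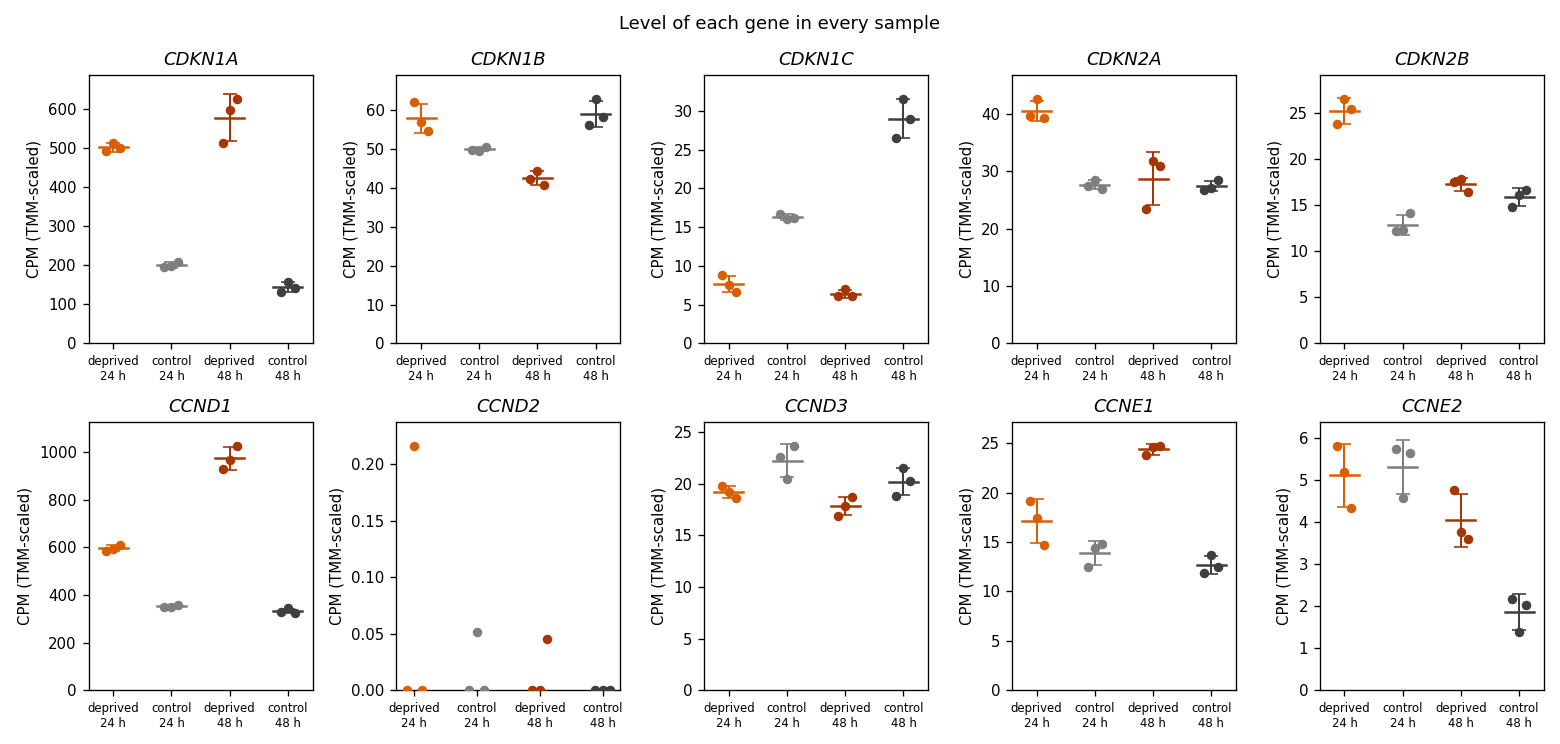
CPM of each gene (vertical axes, each from 0) in the 3 deprived and 3 control samples at 24 h and 48 h. Points are samples, bars are means and whiskers are SD, except for CCND2, which had at most 5 counts in any sample and is drawn as points. CDKN1A and CCND1 lie higher in every deprived sample than in any control sample, and CDKN1C lies lower.

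CDKN1A encodes p21, an inhibitor that is induced when stressed cells halt the cell cycle (chromosome 6, 36676460 to 36687339, GRCh38, GENCODE 29, plus strand). CDKN1A at 24 h had 492, 514 and 501 CPM in deprived cells, against 196, 198 and 209 CPM in control cells. CDKN1A at 48 h had 512, 599 and 626 CPM in deprived cells, against 133, 158 and 142 CPM in control cells. Every deprived sample lay above every control sample. For CDKN1A the log2 fold change was 1.32 ± 0.07 (SE, adjusted p = 1.22e-11 by edgeR's quasi-likelihood test) at 24 h and 2.00 ± 0.07 (adjusted p = 1.03e-14) at 48 h. In control cells the level at 48 h was lower than at 24 h, by a log2 change of -0.48 ± 0.07 (adjusted p = 8.33e-05). In deprived cells it was higher at 48 h than at 24 h by 0.20 ± 0.07 (adjusted p = 0.021). The call in deprived cells was lost without replicate 1 or 3 at 24 h (adjusted p = 0.0708 and 0.051) and without replicate 2 or 3 at 48 h (adjusted p = 0.0787 and 0.126).

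CDKN1B encodes p27, an inhibitor that accumulates in resting cells (chromosome 12, 12715058 to 12722371, plus strand). CDKN1B at 24 h had 62.1, 57 and 54.8 CPM in deprived cells, against 49.9, 49.5 and 50.6 CPM in control cells. CDKN1B at 48 h had 42.4, 44.3 and 40.9 CPM in deprived cells, against 56.3, 62.8 and 58.2 CPM in control cells. The groups did not overlap at either time, and deprived cells were the higher ones at 24 h and the lower ones at 48 h. For CDKN1B the log2 fold change was 0.21 ± 0.06 (adjusted p = 0.00646) at 24 h and -0.47 ± 0.06 (adjusted p = 1.34e-06) at 48 h. The rise at 24 h was not called with upper-quartile scaling (log2 fold change 0.14, adjusted p = 0.0525) or with library totals alone (0.14, adjusted p = 0.0583).

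CDKN1C encodes p57, an imprinted inhibitor best known from embryonic and differentiating tissue (chromosome 11, 2883213 to 2885773, minus strand). CDKN1C at 24 h had 8.78, 7.52 and 6.68 CPM in deprived cells, against 16.7, 16.1 and 16.2 CPM in control cells. CDKN1C at 48 h had 6.16, 7.01 and 6.1 CPM in deprived cells, against 26.5, 31.5 and 29 CPM in control cells. Every deprived sample lay below every control sample. For CDKN1C the log2 fold change was -1.09 ± 0.11 (adjusted p = 5.34e-08) at 24 h and -2.17 ± 0.10 (adjusted p = 7.67e-13) at 48 h. In control cells the level at 48 h was higher than at 24 h by 0.83 ± 0.09 (adjusted p = 5.27e-06). In deprived cells the same difference was -0.25 ± 0.12 (adjusted p = 0.0926), and it was called without replicate 3 of the deprived cells at 24 h (-0.34, adjusted p = 0.0381).

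The INK4 genes lie next to each other on chromosome 9, minus strand, and both rose at 24 h and were not called at 48 h. CDKN2A (21967753 to 21995301) is read from separate starts into p16, a CDK4 and CDK6 inhibitor, and ARF, a protein from another reading frame, and its single row sums these transcripts. CDKN2A at 24 h had 39.6, 42.6 and 39.4 CPM in deprived cells, against 27.5, 28.5 and 27 CPM in control cells. CDKN2A at 48 h had 23.5, 31.8 and 30.9 CPM in deprived cells, against 26.8, 27.1 and 28.5 CPM in control cells. The groups were apart at 24 h and overlapped at 48 h, where replicate 1 of the deprived cells was the lowest of the 6 samples. The log2 fold change was 0.55 ± 0.09 (adjusted p = 2.72e-05) at 24 h and 0.06 ± 0.09 (adjusted p = 0.542, 95% interval -0.14 to 0.27) at 48 h. Without that replicate the value at 48 h was 0.19 and was called (adjusted p = 0.0188).

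CDKN2B encodes p15, an INK4 inhibitor that TGF-beta induces (22002903 to 22009363). CDKN2B at 24 h had 23.8, 26.5 and 25.5 CPM in deprived cells, against 12.2, 12.3 and 14.2 CPM in control cells. CDKN2B at 48 h had 17.6, 17.8 and 16.5 CPM in deprived cells, against 14.8, 16.2 and 16.7 CPM in control cells. The groups were apart at 24 h and overlapped at 48 h. For CDKN2B the log2 fold change was 0.97 ± 0.08 (adjusted p = 1.32e-08) at 24 h and 0.12 ± 0.08 (adjusted p = 0.21, 95% interval -0.07 to 0.32) at 48 h. All CDKN2B exons lie inside CDKN2B-AS1, an antisense gene on the other strand, and whether counting used strand is not stated, so reads of the pair cannot be told apart. CDKN2B-AS1 had 1.78 to 4.11 CPM over the samples, with log2 fold changes of 0.44 at 24 h and -0.08 at 48 h, and it also covers 481 exon bases of CDKN2A. The part of this in the results was not tested.

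At 48 h against 24 h, deprived cells had log2 differences of -0.50 ± 0.09 in CDKN2A (adjusted p = 0.000129) and -0.55 ± 0.08 in CDKN2B (adjusted p = 2.27e-05). In control cells the same difference was -0.01 ± 0.09 in CDKN2A (adjusted p = 0.96) and 0.30 ± 0.09 in CDKN2B (adjusted p = 0.017). That CDKN2B call was lost in 4 of the 12 fits that left out 1 sample, each a control sample (replicates 1 and 2 at 24 h, replicates 2 and 3 at 48 h), with an adjusted p between 0.0537 and 0.081.

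CCND1 encodes cyclin D1, the main D-type cyclin of many epithelial cells and a target of growth factor and Wnt signalling (chromosome 11, 69641087 to 69654474, plus strand). CCND1 at 24 h had 583, 594 and 610 CPM in deprived cells, against 349, 350 and 358 CPM in control cells. CCND1 at 48 h had 930, 966 and 1025 CPM in deprived cells, against 330, 344 and 326 CPM in control cells. Deprived samples stood above all control samples, and those at 48 h above those at 24 h. For CCND1 the log2 fold change was 0.76 ± 0.05 (adjusted p = 1.34e-10) at 24 h and 1.55 ± 0.05 (adjusted p = 1.3e-15) at 48 h. In control cells the difference between the times was -0.08 ± 0.05 (adjusted p = 0.245), and it was called with library totals alone (-0.13, adjusted p = 0.0205). The end of CCND1 lies inside LTO1, a gene on the other strand that had 10.5 to 35.9 CPM in any sample and log2 fold changes of 0.73 at 24 h and 1.5 at 48 h. Reads of the pair cannot be told apart without strand, and the part of this in the results was not tested.

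CCND3 encodes cyclin D3, the D-type cyclin best known from blood cells (chromosome 6, 41934933 to 42050357, minus strand). CCND3 at 24 h had 19.8, 19.2 and 18.6 CPM in deprived cells, against 22.6, 20.5 and 23.6 CPM in control cells. CCND3 at 48 h had 16.9, 17.9 and 18.7 CPM in deprived cells, against 18.8, 21.5 and 20.2 CPM in control cells. Deprived samples lay below control samples at both times, and the nearest samples were within 1 CPM of each other. For CCND3 the log2 fold change was -0.21 ± 0.08 (adjusted p = 0.0304) at 24 h and -0.18 ± 0.08 (adjusted p = 0.0529) at 48 h. The call at 24 h was lost in DESeq2 (adjusted p = 0.0529), with no filter (0.0747), and without replicate 2 or 3 of the deprived cells (0.0721 and 0.0921) or replicate 1 or 3 of the control cells (0.0808 and 0.131). At 48 h CCND3 was called with upper-quartile scaling (adjusted p = 0.0104), with library totals alone (0.023), among genes of at least 5 CPM (0.0197), and without replicate 3 of the deprived or replicate 1 of the control cells (0.0484 and 0.0281).

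CCND2, which encodes cyclin D2 (chromosome 12, 4273772 to 4305350, plus strand), had 7 counts over all 12 samples. They were 5 in replicate 2 of the deprived cells at 24 h, 1 in replicate 3 of the deprived cells at 48 h and 1 in replicate 2 of the control cells at 24 h. The other samples had 0 counts, and no fold change is given. All CCND2 exons lie inside AC008012.1, a gene on the same strand that had 0 to 0.22 CPM. How reads were shared between these genes was not tested.

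CCNE1 encodes cyclin E1, which drives CDK2 at the entry to S phase (chromosome 19, 29811898 to 29824308, plus strand). CCNE1 at 24 h had 19.2, 17.5 and 14.7 CPM in deprived cells, against 12.5, 14.4 and 14.8 CPM in control cells. CCNE1 at 48 h had 23.8, 24.6 and 24.7 CPM in deprived cells, against 11.8, 13.7 and 12.4 CPM in control cells. The groups overlapped at 24 h and were well apart at 48 h. For CCNE1 the log2 fold change was 0.30 ± 0.10 (adjusted p = 0.0151) at 24 h and 0.95 ± 0.10 (adjusted p = 5.59e-08) at 48 h. The call at 24 h was lost with upper-quartile scaling (adjusted p = 0.053), with library totals alone (0.055), and without replicate 1 of the deprived cells (0.0966) or of the control cells (0.0878).

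CCNE2 encodes cyclin E2, an E2F target that binds CDK2 like cyclin E1 (chromosome 8, 94879770 to 94896678, minus strand). CCNE2 at 24 h had 5.8, 5.19 and 4.33 CPM in deprived cells, against 5.72, 4.57 and 5.64 CPM in control cells. CCNE2 at 48 h had 4.75, 3.76 and 3.6 CPM in deprived cells, against 2.17, 1.37 and 2.02 CPM in control cells. The groups overlapped at 24 h and did not at 48 h, where the control cells were the lowest of all. For CCNE2 the log2 fold change was -0.06 ± 0.18 (adjusted p = 0.804, 95% interval -0.49 to 0.37) at 24 h and 1.12 ± 0.21 (adjusted p = 9.47e-05) at 48 h. In control cells the level at 48 h was below that at 24 h by a log2 change of -1.51 ± 0.21 (adjusted p = 3.74e-05), while in deprived cells the difference was -0.33 ± 0.19 (adjusted p = 0.166). Of CCNE2's exon bases, 1977 lie inside INTS8 on the other strand, which had 47.4 to 106 CPM, and its reads may be split with that gene. INTS8 had log2 fold changes of -0.63 at 24 h and -0.93 at 48 h. A further 227 exon bases lie inside NDUFAF6, also on the other strand, which had 7.16 to 14.9 CPM and log2 fold changes of 0.50 at 24 h and 0.76 at 48 h. The part of these genes in the CCNE2 result was not tested.

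**Figure D2:**
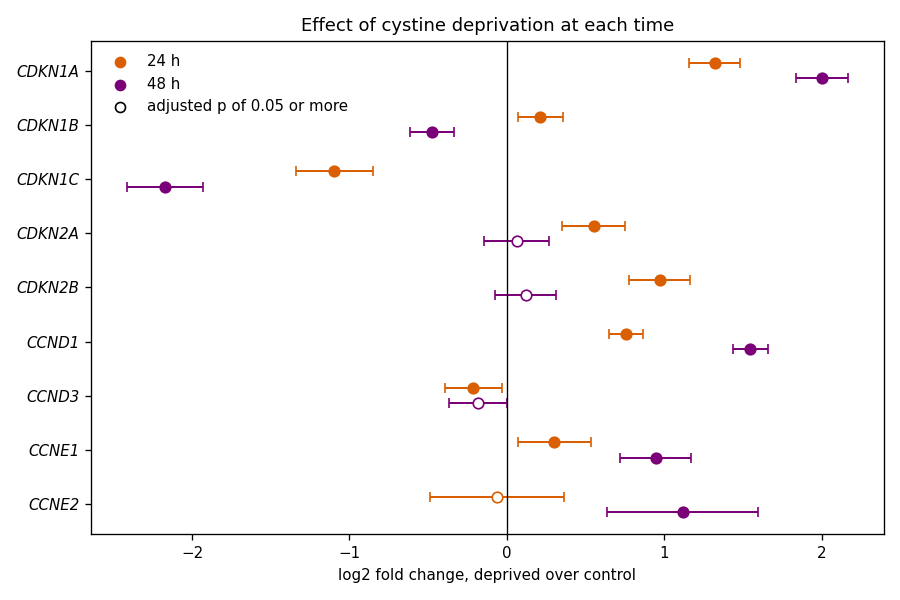
Log2 fold change of deprived over control cells (horizontal axis) for the 9 tested genes at 24 h and 48 h, with 95% intervals from 3 samples a group. Open points were not called. CDKN1A and CCND1 lie further to the right at 48 h than at 24 h, CDKN1C further to the left, and CDKN1B on opposite sides of 0.

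A further comparison asked whether the effect of deprivation differed between the times, through the interaction term of the same fit. It differed in 8 of the 9 tested genes. The effect was higher at 48 h than at 24 h in CDKN1A (log2 difference 0.68 ± 0.10, adjusted p = 2.24e-05), CCND1 (0.79 ± 0.07, adjusted p = 2.79e-08), CCNE1 (0.64 ± 0.14, adjusted p = 0.00139) and CCNE2 (1.18 ± 0.28, adjusted p = 0.00273). It was lower at 48 h in CDKN1B (-0.69 ± 0.09, adjusted p = 5.35e-06), CDKN1C (-1.08 ± 0.15, adjusted p = 1.52e-05), CDKN2A (-0.49 ± 0.12, adjusted p = 0.0049) and CDKN2B (-0.85 ± 0.12, adjusted p = 1.74e-05). Of all tested genes, 16.4% had a higher and 19.2% a lower effect at 48 h. CCND3 was not called (0.03 ± 0.11, adjusted p = 0.863). Of the 4 genes with a higher effect 3 were cyclins, and the other was the inhibitor CDKN1A. The 4 with a lower effect were inhibitors. A lower effect was a larger fall in CDKN1C and a rise turned to a fall in CDKN1B. In CDKN2A and CDKN2B it was a rise at 24 h that was not called at 48 h. In CDKN1A, CDKN1C and CCNE2 the control cells differed more between the times than the deprived cells did.

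Time in culture was also compared within each medium, at 48 h against 24 h. In control cells 3 of the 9 genes were higher at 48 h (CDKN1B, CDKN1C and CDKN2B) and 2 were lower (CDKN1A and CCNE2), while of all tested genes 12.7% were called higher and 10.4% lower. Scaling by library totals alone gave 1697 genes higher and 2580 lower, against 2151 and 1760 with TMM. CDKN1B was higher by 0.24 ± 0.06 (adjusted p = 0.00762). In deprived cells 3 of the 9 genes were higher at 48 h (CDKN1A, CCND1 and CCNE1) and 3 were lower (CDKN1B, CDKN2A and CDKN2B), while of all tested genes 20.7% were called higher and 21.8% lower. The second-day difference in deprived cells was 0.71 ± 0.05 for CCND1 (adjusted p = 4.85e-10), 0.51 ± 0.09 for CCNE1 (adjusted p = 0.000238) and -0.45 ± 0.06 for CDKN1B (adjusted p = 1.06e-05).

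To compare levels between genes, counts were divided by the deposited gene length and scaled to the same total over all named genes, as TPM. In deprived cells at 48 h the order of mean TPM was CDKN1A 533 ± 34.4 (SD, n = 3), CCND1 445 ± 14.2, CDKN1B 92 ± 5.05, CDKN2A 63.1 ± 7.58, CCNE1 24.2 ± 0.51, CCND3 17 ± 0.418, CDKN2B 8.71 ± 0.584, CDKN1C 6.45 ± 0.431 and CCNE2 2.88 ± 0.579. No neighbours in that order overlapped. In control cells at 48 h it was CCND1 148 ± 4.8, CDKN1A 129 ± 8.62, CDKN1B 124 ± 4.74, CDKN2A 58.8 ± 1.62, CDKN1C 28.2 ± 1.75, CCND3 18.7 ± 0.785, CCNE1 12.2 ± 0.641, CDKN2B 7.76 ± 0.274 and CCNE2 1.29 ± 0.327. There CDKN1A (123 to 139 TPM) and CDKN1B (120 to 129 TPM) overlapped, and CDKN1A was second to CCND1.

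At 24 h CDKN1A and CCND1 were the highest in deprived cells, at 462 ± 14.2 and 272 ± 4.92 TPM, and in control cells, at 190 ± 3.48 and 165 ± 1.49 TPM. In deprived cells CDKN1B (125 ± 8.55 TPM) and CDKN2A (89 ± 4.87 TPM) followed. Below them CCND3 (17.6 to 18.9 TPM) and CCNE1 (14.4 to 19 TPM) overlapped in deprived cells. In control cells at 24 h CDKN1B (111 ± 1.66 TPM), CDKN2A (62.5 ± 2.32 TPM), CCND3 (21.8 ± 1.5 TPM), CDKN1C (16.8 ± 0.632 TPM) and CCNE1 (14.1 ± 1.01 TPM) were in that order.

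The order of CDKN1B and CDKN2A rests on the deposited lengths, 897 and 880 bases, which are shorter than their longest GENCODE 29 transcripts (2657 and 1283 bases). With the longest transcript as length, a choice made after seeing the data, CDKN1B had 31.1 TPM in deprived cells and 41.8 TPM in control cells at 48 h, and CDKN2A had 43.3 TPM in deprived cells and 40.3 TPM in control cells. Comparisons of 1 gene between groups do not depend on this length.

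Within families, CCND1 made up nearly all D-type cyclin transcript per length, at 93.7% ± 0.31 in deprived cells and 88.3% ± 0.65 in control cells at 24 h, and 96.3% ± 0.0323 in deprived cells and 88.8% ± 0.508 in control cells at 48 h (SD, n = 3). The D-type sum was 290 ± 4.44 TPM in deprived cells and 187 ± 2.74 TPM in control cells at 24 h, and 462 ± 14.6 TPM in deprived cells and 167 ± 4.91 TPM in control cells at 48 h. CDKN1A made up 77.7% ± 1.46 of CIP/KIP transcript in deprived cells and 59.9% ± 0.662 in control cells at 24 h. At 48 h it made up 84.4% ± 1.55 in deprived cells and 45.9% ± 0.654 in control cells. With the longest transcripts as lengths that share at 48 h was 92.9% in deprived cells and 63.1% in control cells. The CIP/KIP sum was 595 ± 15.6 TPM in deprived cells and 318 ± 3.8 TPM in control cells at 24 h, and 631 ± 29.5 TPM in deprived cells and 281 ± 14.9 TPM in control cells at 48 h. These sums add the members and carry no test.

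**Figure D3:**
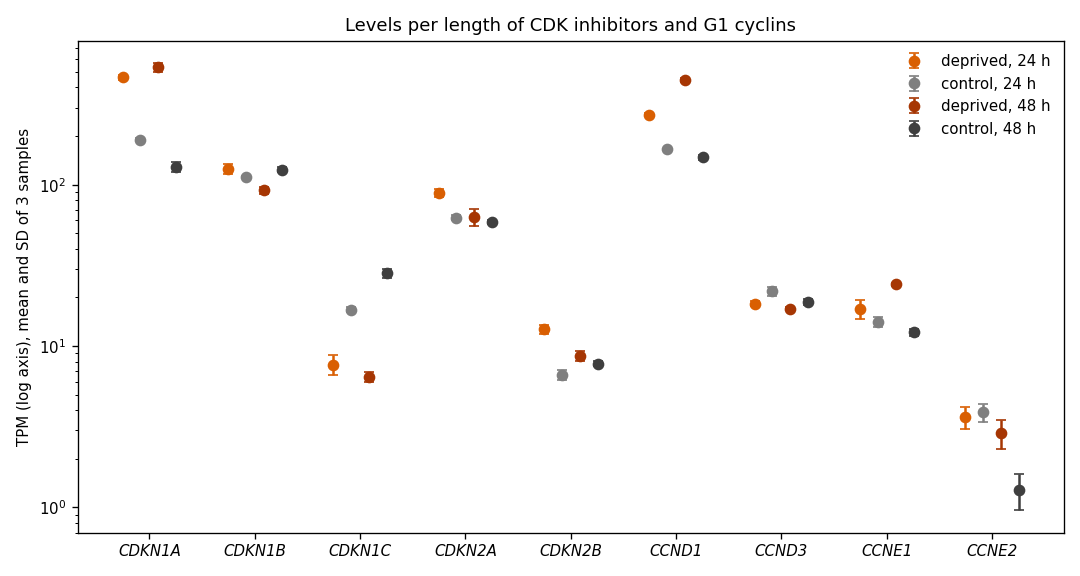
TPM of each gene but CCND2 (vertical log axis), as mean and SD of 3 samples, in deprived and control cells at 24 h and 48 h. CDKN1A and CCND1 top the range in deprived cells, at 533 and 445 TPM at 48 h, and CCNE2 is the lowest in all 4 groups.

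The partners of these genes were read from fixed lists, whose members were likewise chosen with earlier results known. Their counts stand against the 28.8% of all tested genes called higher and 26.9% called lower at 24 h, and 33.5% higher and 34.9% lower at 48 h, and against medians of -0.01 and -0.02. Of 7 G1 kinase genes and activators, 4 rose and 1 fell at each time, with median log2 fold changes of 0.17 at 24 h and 0.22 at 48 h. CDK4, CDC25A, CDK7 and MNAT1 were called higher at 24 h, and CDK4, CDC25A, CDK7 and CDK6 at 48 h, MNAT1 and CDK6 being named after their values were seen. The MNAT1 call at 24 h (0.20 ± 0.08, adjusted p = 0.0473) was lost in 12 of 20 alternatives, with an adjusted p of up to 0.211, and the CDK6 call at 48 h (0.22 ± 0.08, adjusted p = 0.0256) in 5 of 20, with an adjusted p of up to 0.179. The libraries whose omission ended the MNAT1 call were deprived 24 h replicates 1 (adjusted p = 0.0943) and 2 (0.137), control 24 h replicates 1 (0.144) and 3 (0.157), deprived 48 h replicate 2 (0.0506) and control 48 h replicate 2 (0.0514). Those for CDK6 were deprived 48 h replicate 1 (0.0986) and control 48 h replicate 2 (0.179). CDK4, the partner of D-type cyclins, rose by 0.78 ± 0.07 on the log2 scale at 24 h (adjusted p = 1.38e-08) and by 1.18 ± 0.07 at 48 h (adjusted p = 1.26e-11). CDK2, the partner of E-type cyclins, fell, at -0.34 ± 0.07 at 24 h (adjusted p = 0.000214) and -0.75 ± 0.07 at 48 h (adjusted p = 1.05e-08). CDC25A, the phosphatase that activates CDK2, rose by 0.82 ± 0.12 at 24 h and by 0.60 ± 0.13 at 48 h. CDK7, of the kinase that activates CDKs, rose by 0.34 ± 0.07 at 48 h, while its call at 24 h (0.17 ± 0.07, adjusted p = 0.0392) was lost in 7 alternatives, among them upper-quartile scaling (adjusted p = 0.208). The list had 3 called genes in place of 5 at 24 h with upper-quartile scaling, with library totals alone, among genes of at least 5 CPM, and without replicate 2 of the deprived or replicate 3 of the control cells.

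The S and G2/M cyclins and CDK1, which act after the G1 cyclins, were called in opposite directions at the 2 times in most cases. Of 6 tested genes of 7, 5 rose at 24 h and 5 fell at 48 h, with median log2 fold changes of 0.40 and -2.98. CCNA2, the cyclin of S phase and G2, rose by 0.72 ± 0.06 at 24 h and fell, at -2.65 ± 0.07, at 48 h (adjusted p = 1.22e-16). CCNB1 and CCNB2, the mitotic cyclins, rose at 24 h (0.40 ± 0.06 and 0.41 ± 0.06) and fell at 48 h (-3.46 ± 0.07 and -4.01 ± 0.08). CDK1, their kinase, was at 0.57 ± 0.06 at 24 h and -2.87 ± 0.07 at 48 h, both called. The remaining gene that rose at 48 h was CCNB3, a meiotic cyclin, at 0.73 ± 0.14, named after its values were seen. The call of CCNF, an F-box cyclin named after its values were seen, at 24 h (0.19 ± 0.07, adjusted p = 0.0381) was lost in 6 of 20 alternatives, among them those without deprived 24 h replicate 2 (adjusted p = 0.0604) or 3 (0.184) and without control 24 h replicate 1 (0.119) or 2 (0.133). CCNA1 had 0 counts in every sample.

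CDK inhibitors outside the 10 genes also fell at 48 h, in 3 of 3. CDKN2C, the INK4 protein p18, fell, at -0.70 ± 0.16 at 24 h (adjusted p = 0.00126) and -3.27 ± 0.21 at 48 h (adjusted p = 8.44e-11). Its counts in the deprived samples at 48 h were low, at 10, 27 and 19. CDKN2D, the INK4 protein p19, was at 0.08 ± 0.12 at 24 h and fell at 48 h (-1.15 ± 0.13). CDKN3, a phosphatase that acts on CDKs, was at 0.16 ± 0.10 at 24 h and fell at 48 h (-3.83 ± 0.13).

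Of 13 pocket protein and E2F genes, 7 rose and 2 fell at 24 h, and 5 rose (E2F1, E2F3, E2F4, E2F5 and E2F6) and 4 fell (TFDP2, RBL2, E2F8 and E2F2) at 48 h. The medians were 0.14 at 24 h and 0.11 at 48 h, and the counts at 48 h lie near the shares of all tested genes. Those outside the 4 described next were named after their values were seen. The E2F3 call at 24 h (0.14 ± 0.06, adjusted p = 0.0439) was lost in 10 of 20 alternatives and the E2F6 call at 24 h (0.22 ± 0.07) in 3, while E2F1 (-0.27 ± 0.12, adjusted p = 0.0512) was called lower at 24 h in 9. The E2F3 call was lost without deprived 24 h replicate 1 (adjusted p = 0.135) or 2 (0.0988), control 24 h replicate 2 (0.106) or 3 (0.123) or deprived 48 h replicate 2 (0.0502), and reached 0.369 with library totals alone. The E2F6 call was lost without deprived 24 h replicate 3 (0.0661), and E2F1 was called at 24 h without deprived 48 h replicate 2 (0.0484) or 3 (0.0414) or control 48 h replicate 1 (0.0392). At 48 h the E2F1 call (0.35 ± 0.12) was lost without deprived replicate 2 (0.0709) or control replicate 1 (0.0681). RBL2, the p130 pocket protein of resting cells, fell, at -0.59 ± 0.05 at 24 h and -0.84 ± 0.05 at 48 h. TFDP2, a partner of E2F factors, fell, at -0.83 ± 0.05 at 24 h and -1.06 ± 0.05 at 48 h. E2F4, a repressor E2F, rose by 0.27 ± 0.06 at 24 h and by 0.55 ± 0.06 at 48 h. E2F8, an atypical repressor made in S phase, rose by 0.70 ± 0.11 at 24 h and fell at 48 h (-1.24 ± 0.13).

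Of 13 genes for the turnover of G1 cyclins and CDK inhibitors, 8 rose and 4 fell (SKP2, SKP1, CUL4B and DDB1) at 24 h, and 7 rose and 4 fell (CDC20, SKP2, CUL4B and SKP1) at 48 h. The medians were 0.30 at 24 h and 0.16 at 48 h. DDB1, named after its values were seen, was at -0.18 ± 0.06 at 24 h, a call lost without deprived 24 h replicate 1 (adjusted p = 0.0612) or 2 (0.0536). Members of the ubiquitin ligase that marks p27 and p21 for degradation went in both directions. SKP2 and SKP1 fell at both times, while CUL1, its scaffold, and CKS1B, a cofactor of SKP2, both named after their values were seen, were called higher. CUL1 was at 0.26 ± 0.05 at 24 h and 0.38 ± 0.05 at 48 h, and CKS1B at 1.02 ± 0.06 at 24 h and 0.16 ± 0.06 at 48 h, where its call was lost with upper-quartile scaling (adjusted p = 0.115) and without deprived replicate 2 (0.0608) or control replicate 1 (0.133). SKP2 was at -0.78 ± 0.09 at 24 h and -1.14 ± 0.09 at 48 h, and SKP1 at -0.72 ± 0.05 and -0.57 ± 0.05. CUL4B, a cullin scaffold, fell, at -0.57 ± 0.06 at 24 h and -0.72 ± 0.06 at 48 h. CDC20, which activates the mitotic ligase, rose by 0.86 ± 0.06 at 24 h and fell at 48 h (-3.11 ± 0.07).

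Of 9 genes of the DREAM complex and quiescence, 5 rose (FOXM1, DYRK1A, LIN52, LIN37 and LIN54) and 1 fell (RBBP4, -0.16 ± 0.05) at 24 h, and 5 rose (DYRK1A, LIN52, RBBP4, LIN37 and LIN54) and 3 fell (FOXM1, MYBL2 and LIN9) at 48 h. The medians were 0.32 at 24 h and 0.19 at 48 h. LIN37, LIN54, RBBP4 and LIN9 were named after their values were seen, and the LIN37 call at 24 h was lost without deprived 24 h replicate 2 (adjusted p = 0.0558). FOXM1, a driver of G2/M transcription, rose by 0.49 ± 0.05 at 24 h and fell at 48 h (-2.48 ± 0.06). MYBL2, its partner in that programme, was at 0.13 ± 0.08 at 24 h and fell at 48 h (-0.90 ± 0.09). DYRK1A, the kinase that assembles DREAM, rose by 0.45 ± 0.05 at 24 h and by 0.36 ± 0.05 at 48 h. LIN52, the DREAM subunit it phosphorylates, rose by 0.58 ± 0.11 at 48 h, and its call at 24 h (0.32 ± 0.11, adjusted p = 0.015) was lost with library totals alone (adjusted p = 0.0548) and without replicate 1 of the deprived or replicate 2 of the control cells (0.087 and 0.0742).

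**Figure D4:**
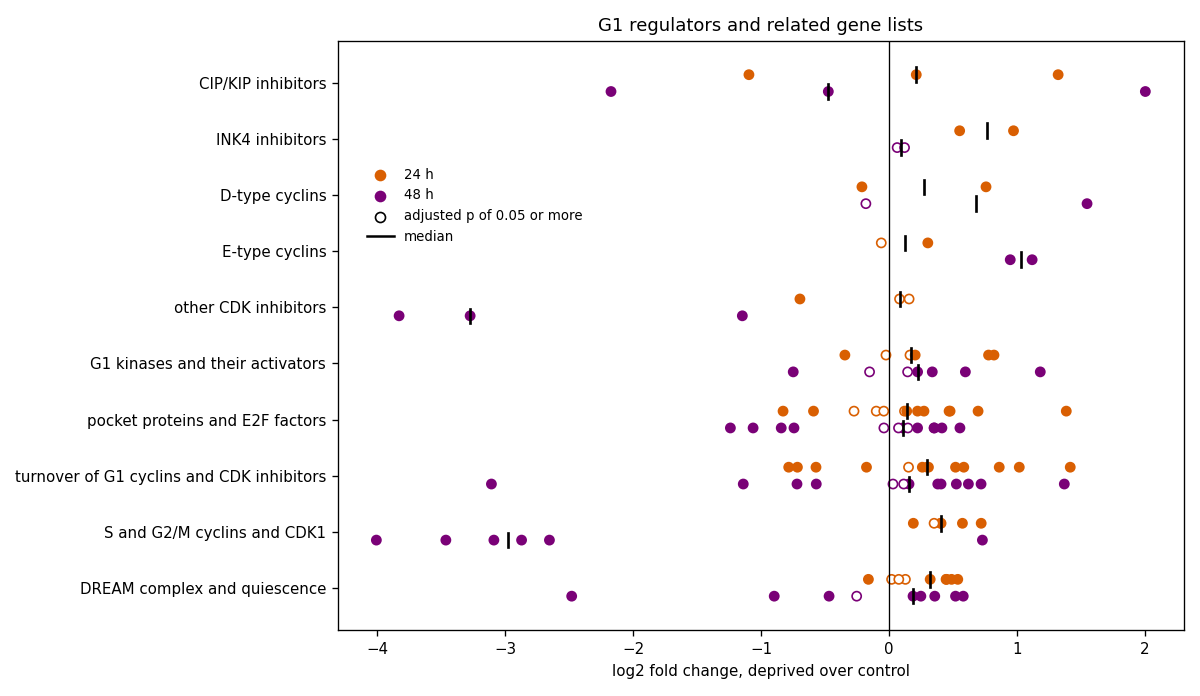
Log2 fold change of deprived over control cells (horizontal axis) for each tested gene of the 4 families and 6 related lists at 24 h and 48 h. Open points were not called and vertical bars are list medians, among them 0.40 at 24 h and -2.98 at 48 h for the S and G2/M cyclins and CDK1.

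For each tested gene, the pair of genes whose log2 CPM followed it most closely over the 12 samples was taken from 11133 genes, as a description. The 12 points fall into 4 groups of 3, which every pair of genes shares. CDKN1A was followed by AEN and CHAC1 (Pearson r = 0.998 and 0.998), and CCND1 by GOLGA3 and CBX6 (0.997 and 0.997). CDKN1C was followed by HECA and PLEKHG6 (0.99 and 0.989), and CDKN1B by HCFC1R1 and UBALD2 (0.959 and 0.955). CDKN2A was followed by SART1 and EEF1A1 (0.954 and 0.938) and CDKN2B by ACY1 and MST1R (0.969 and 0.968). CCND3 was followed by ARPC1B and POLR2E (0.956 and 0.93), CCNE1 by STX3 and POPDC3 (0.977 and 0.976) and CCNE2 by SSB and SOCS4 (0.958 and 0.945). None of the 10 genes was among the pair named for another of them, which says little with 11133 genes searched. CCND2 and CCNE2, below a mean of 5 CPM, could not be named.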

How the data were processed

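The authors deposited estimated counts per gene, not normalized, with 1 column per sample and a gene length in bases. The submitters' processing notes name fastp, HISAT, RSEM and GRCh38, with no version or order, and no source here gives the annotation release. A gene name was missing in 316 of 60987 rows, which were dropped. They held 1.06% (24 h) and 0.762% (48 h) of counts in deprived cells and 1.55% and 1.2% in control cells.

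Counts were rounded, filtered with filterByExpr (minimum count 10, minimum total 15) and TMM-scaled. All 12 samples entered 1 fit of 4 group means in edgeR 4.0.16 (R 4.3.3, glmQLFit and glmQLFTest). The SE was taken from the F statistic (log2 fold change over its square root), and 95% intervals use 8 residual degrees of freedom. The fit was tested on simulated data. The share of false calls was above the 0.05 threshold at 48 h (9.36%) though not at 24 h (4.19%). Part of the changes of every simulated size was missed. Of 1.5-fold changes 75.8% were recovered at 24 h and 62.7% at 48 h. For 2-fold changes it was 76.8% at 24 h and 81% at 48 h, and for 4-fold changes 93.4% and 91.7%. Far fewer genes were changed there than were called in these data, so these shares may not carry over. Replicates differed beyond sampling noise, with a chi-square of 3 to 8.12 per degree of freedom. Alternatives were RLE, upper-quartile and library-total scaling, DESeq2 1.42.0, no filter, a mean of at least 5 CPM, a replicate block, only the compared groups, and leaving out each sample.

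The genes, lists and tests were chosen with earlier results of these data known. Values are given for all 10 genes, for at most 4 genes per list with the smallest adjusted p at 48 h, and for the 2 genes most alike with a mean of at least 5 CPM. Further listed genes have values where the text says that they were named after their values were seen. Positions are from GENCODE 29. The results of 1 further list of genes are not reported here.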

Additional observations from a re-analysis of the deposited data

Results flagged for a closer look

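In 8 genes the effect of deprivation at 48 h differed from that at 24 h by the interaction term of the edgeR fit. The difference in log2 fold change, 48 h minus 24 h, was 0.68 for CDKN1A, 0.79 for CCND1, 0.64 for CCNE1 and 1.18 for CCNE2. It was -0.69 for CDKN1B, -1.08 for CDKN1C, -0.49 for CDKN2A and -0.85 for CDKN2B. CDKN1B is the 1 gene of these that was called in opposite directions at 24 h and 48 h. CCNE2 in deprived cells had 4.04 ± 0.627 CPM at 48 h against 5.1 ± 0.742 CPM at 24 h, and in control cells 1.85 ± 0.425 CPM at 48 h against 5.31 ± 0.643 CPM at 24 h (SD, n = 3).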

How the results depend on the processing

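Over 886 refitted log2 fold changes of the 9 tested genes, 858 kept their side of the threshold, 20 lost a call, 8 gained one and 0 called values changed sign. All 170 refits of the interaction kept their side of the threshold. The genes whose call depended on a setting were CDKN1B, CCNE1 and CCND3 at 24 h, CCND3 and CDKN2A at 48 h, CCND1 and CDKN2B between times in control cells, and CDKN1A and CDKN1C between times in deprived cells, with the values given above. The number of the 9 genes called ranged over all alternatives from 6 to 8 at 24 h, 6 to 7 at 48 h, 7 to 8 for the interaction, 4 to 6 in control cells and 5 to 6 in deprived cells between times; CCNE2 was not tested among genes of at least 5 CPM. The count of all genes called stayed within 1.5 times in each comparison. Whether the replicate numbers pair the samples is not stated, and correlations this low cannot settle it. Deviations of same-numbered samples correlated between -0.0412 and 0.126, over 0.1 in 1 of 18 pairs. The highest value was between replicate 1 of the deprived and of the control cells at 48 h. A sample correlated best with its own number in 17 of 36 sets, each with 3 candidate samples. With the replicate number as a block, 8 of the 9 genes were called at 24 h, 6 at 48 h, 8 for the interaction, 5 in control cells and 6 in deprived cells, and of all genes 9631, 11734, 6329, 4306 and 7473 in the same order. TMM library sizes divide all genes of a sample by the same number, so they cannot change the order of levels per length within a sample. The longest transcripts as lengths changed the rank of 4 genes in deprived and 2 in control cells at 24 h. At 48 h they changed the rank of 2 genes in deprived and 0 in control cells. Of the G1 kinases, 5 were called at 24 h, against 3 under each alternative named above. The interaction was not refitted on only the compared groups, since all 4 enter it. Of 6401 refits of other listed genes, 6158 kept their side of the threshold, 66 gained a call, the rest lost one, and 0 called values changed sign. Low counts limit what can be said of CCND2, with 7 counts in all, and CCNE2, with 1.37 to 5.8 CPM. Outside the 10 genes, CDKN2C had 10, 27 and 19 counts in deprived cells at 48 h.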
